A study of Mus musculus with 16 samples.

Results

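Hemoglobin carries oxygen in red blood cells and is built from alpha and beta chains, each holding a heme group. Red cell precursors in the marrow make these chains and heme, then lose their nucleus and enter the blood as reticulocytes, which still hold globin messenger RNA and finish maturing there. RNA extracted from a piece of tumor therefore contains the RNA of the blood in its vessels or in hemorrhage beside that of the tumor cells.

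From the table of all genes, 8 erythroid genes (8 of the 18929 genes in the deposited table, matched by symbol) were followed: the alpha chains Hba-a1 and Hba-a2, the beta chains Hbb-bs and Hbb-bt, the heme synthesis enzyme Alas2, the membrane anion exchanger Slc4a1, the apolipoprotein L family gene Apol11b and the red cell enzyme Bpgm. They were chosen by their values, because they fell in tumors given α-ketoglutarate (α-KG) together with an antibody to PD1, so that fall is a description here and was not tested. Slc4a1 and Apol11b were set apart in that choice because they were lower in every treated group, so their values against vehicle in the single-agent groups are a description as well. The tumors were B16F10 melanomas, tumors of a mouse melanoma cell line placed by injection in the abdomen, on the right side, of C57BL/6 females aged 7 to 8 weeks. From a volume of about 50 mm3 the mice received intraperitoneal injections for 9 to 11 days, and 4 tumors per group were sequenced after vehicle (corn oil, with IgG as isotype control), anti-PD1 (PD1 mAb), α-KG (100 mg/kg) or α-KG + anti-PD1, 16 in all. The series description calls the 4 tumors of a group independent samples. Every tumor thus came from 1 transplanted cell line in 1 strain and sex. In these bulk tumors fewer red cells and less RNA per red cell cannot be told apart.

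Levels are FPKM, fragments counted relative to transcript length and to all fragments of the library, as deposited. The sum of FPKM without hemoglobin genes was between 486095 and 555814 in the 16 tumors, and the sequencing depth is unknown. Melanocyte markers were high in all 16 tumors (8 genes, summed FPKM between 8103 and 11017). The vehicle tumors fell into a pair with high levels of many erythroid genes, tumors 3 and 4, and a pair with lower levels, tumors 1 and 2. Vehicle tumors 3 and 4 were also the closest of all pairs of tumors within a group: over 6262 genes the SD of their log2 difference was 0.165, against 0.194 to 0.488 in the other pairs. Whether they are separate libraries could not be tested without counts, so values without this pair are given beside differences from vehicle that it moves most. A fit without it has 2 vehicle tumors, and in that fit 1.71% of all genes were lower and 12.4% higher with the combination than in vehicle.

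The promoters of these genes are shown because the genes moved together. RefSeq (build GRCm38.p6, the sequence of mm10) has a promoter for 7 of the 8, all but Slc4a1. Each line holds the 210 bases before the start site, with capitals for GATAA (the core bound by GATA factors), CACCC (bound by KLF1 and its relatives), CCAAT and TATAA, searched on both strands. Hba-a1 is left out because the 247 bases it shares with Hba-a2 are identical.
Hba-a2, chr11:32296282-32296491, plus strand: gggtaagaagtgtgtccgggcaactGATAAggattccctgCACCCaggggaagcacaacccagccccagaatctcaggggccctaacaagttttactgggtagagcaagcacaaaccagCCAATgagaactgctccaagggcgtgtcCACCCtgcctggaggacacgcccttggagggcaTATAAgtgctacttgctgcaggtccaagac
Hbb-bs, chr7:103827929-103828138, minus strand: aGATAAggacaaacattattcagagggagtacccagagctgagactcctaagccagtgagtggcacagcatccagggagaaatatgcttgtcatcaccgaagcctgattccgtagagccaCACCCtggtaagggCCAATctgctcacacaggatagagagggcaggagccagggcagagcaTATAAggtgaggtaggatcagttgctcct
Hbb-bt, chr7:103813924-103814133, minus strand: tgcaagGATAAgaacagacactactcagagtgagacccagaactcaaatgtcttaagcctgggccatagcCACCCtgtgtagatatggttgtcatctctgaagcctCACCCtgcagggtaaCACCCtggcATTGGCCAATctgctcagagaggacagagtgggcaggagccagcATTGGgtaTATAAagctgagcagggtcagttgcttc
Alas2, chrX:150547207-150547416, plus strand: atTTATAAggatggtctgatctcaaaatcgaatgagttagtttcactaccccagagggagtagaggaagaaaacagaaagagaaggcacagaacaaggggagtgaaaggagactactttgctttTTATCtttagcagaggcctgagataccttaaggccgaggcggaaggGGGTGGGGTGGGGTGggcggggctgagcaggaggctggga
Apol11b, chr15:77643287-77643496, minus strand: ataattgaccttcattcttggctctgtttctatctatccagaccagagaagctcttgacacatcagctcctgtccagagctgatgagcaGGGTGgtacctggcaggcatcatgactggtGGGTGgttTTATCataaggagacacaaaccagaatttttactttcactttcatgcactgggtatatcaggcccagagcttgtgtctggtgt
Bpgm, chr6:34476146-34476355, plus strand: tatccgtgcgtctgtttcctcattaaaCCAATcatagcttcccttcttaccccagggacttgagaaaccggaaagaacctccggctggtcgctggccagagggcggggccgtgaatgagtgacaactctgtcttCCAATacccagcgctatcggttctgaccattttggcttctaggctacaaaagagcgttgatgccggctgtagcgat

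In the 250 bases before the start, GATAA was present in 6 of these 7 promoters, against 23% of 27025 promoters in the same table. CACCC was present in 6 of 7 (51.3% of all promoters), CCAAT in 5 of 7 (34.5%) and TATAA in 5 of 7 (23.5%), and the alpha pair is counted here as separate promoters although the sequence is the same. Bpgm, an enzyme of glycolysis that most cells use at a low level, held neither GATAA nor CACCC in this window. These matches describe letters, not binding.

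Apart from the alpha pair and the beta pair, the genes do not neighbor each other. Hba-a1 (gene ID 15122, chr11:32283672-32284486) and Hba-a2 (110257, chr11:32296492-32297310) start 12820 bases apart. Hbb-bs (100503605, chr7:103826523-103827928) and Hbb-bt (101488143, chr7:103812524-103813923) start 14005 bases apart. Slc4a1 (20533) is on the same chromosome as the alpha chains at chr11:102348820-102365281, Apol11b (328563) is at chr15:77633951-77643286, Bpgm (12183) at chr6:34476356-34505136 and Alas2 (11656) at chrX:150547417-150570622.

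The chains of a pair are hard to tell apart by sequence, which bears on every separate value below. The coding sequences of Hba-a1 and Hba-a2 (429 bases in the GENCODE transcripts) differed at 1 base and shared a run of 380 bases. Those of Hbb-bs and Hbb-bt (444 bases) also differed at 1 base and shared a run of 416 bases. The 41 coding bases around each difference are shown with the differing base in capitals.
Hba-a1, coding bases 361 to 401: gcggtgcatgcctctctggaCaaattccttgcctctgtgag
Hba-a2, coding bases 361 to 401: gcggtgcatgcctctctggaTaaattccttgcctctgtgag
Hbb-bs, coding bases 397 to 437: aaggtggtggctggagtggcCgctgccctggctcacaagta
Hbb-bt, coding bases 397 to 437: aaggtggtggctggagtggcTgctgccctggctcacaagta
Fragments from the shared coding sequence cannot be assigned to a member of the pair, so the split within a pair is uncertain and the members of a pair are not independent readings.

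Summed, the alpha chains were more abundant than the beta chains, although Hbb-bs lay above Hba-a2 in every tumor. In vehicle tumors 1 to 4, Hba-a1 was at 25247, 27531, 41447 and 44570 FPKM. It was at 55128, 29341, 8992 and 41769 FPKM in the anti-PD1 tumors and at 10783, 29749, 36200 and 26719 FPKM in the α-KG tumors. In the α-KG + anti-PD1 tumors it was at 4529, 4129, 4418 and 4387 FPKM. These last values lay below all 12 other tumors and within a narrow range, while anti-PD1 tumor 3 and α-KG tumor 1 stood well below the rest of their groups. Hba-a2 followed at a lower level, between 2829 and 3084 FPKM with the combination and between 6009 and 38166 FPKM elsewhere. Its share of the alpha FPKM was 37.5% to 41.1% in the 16 tumors.

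The beta chains followed the alpha chains. Hbb-bs was at 17329, 24634, 26810 and 29121 FPKM in vehicle tumors and at 44807, 22441, 7108 and 34092 FPKM in anti-PD1 tumors. It was at 9136, 22622, 32279 and 25376 FPKM in α-KG tumors and at 3222, 3350, 3734 and 3556 FPKM in α-KG + anti-PD1 tumors. The low tumors were again anti-PD1 tumor 3, α-KG tumor 1 and all 4 of the combination. Hbb-bt was at 3517, 4275, 6706 and 6577 FPKM in vehicle tumors, at 6785, 3478, 1139 and 4891 FPKM in anti-PD1 tumors, at 1388, 3980, 5793 and 2852 FPKM in α-KG tumors and at 482, 547, 482 and 532 FPKM in α-KG + anti-PD1 tumors. Its share of the beta FPKM was 14.8% to 20.0% in vehicle tumors and 10.1% to 15.2% in the 12 treated tumors, which overlap. The ratio of alpha to beta FPKM stayed between 1.57 and 2.02 in all 16 tumors.

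**Figure D1:**
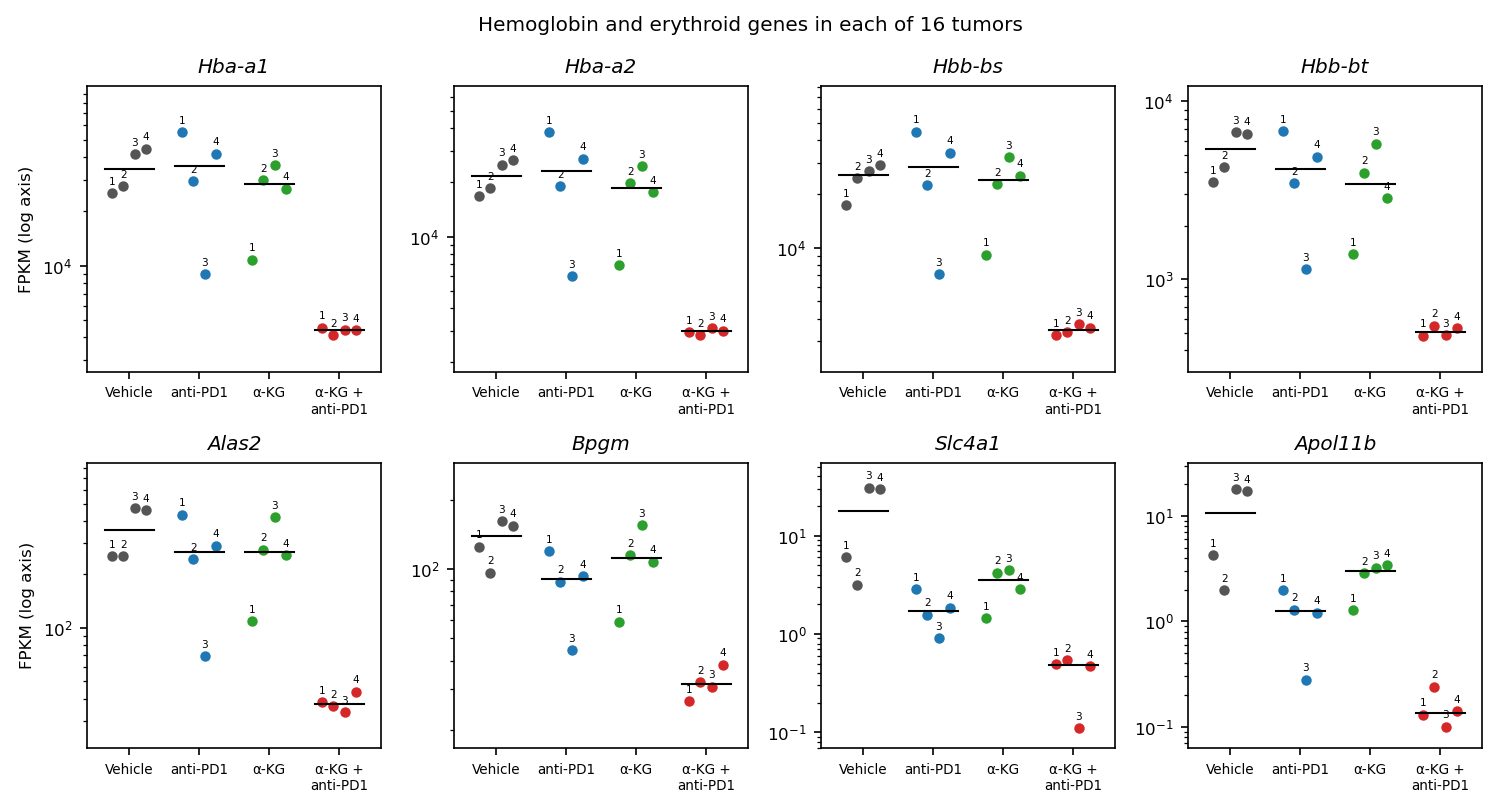
FPKM (log axis) of the 8 genes in each tumor, numbered as in the labels, with a line at each group's median. The α-KG + anti-PD1 tumors lie below the 12 others for every gene, and vehicle tumors 3 and 4 stand above vehicle tumors 1 and 2, most of all for Slc4a1 and Apol11b.

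As a share of all FPKM, the 12 hemoglobin genes in the table made up from 10.9% up to 16.8% in vehicle tumors, 4.23% up to 22.2% in anti-PD1 tumors, 4.85% up to 15.1% in α-KG tumors and 2.09% up to 2.23% with both agents. The mean with the combination was 2.17% ± 0.067 (SD, n = 4), against 14.1% ± 2.83 (SD, n = 4) in vehicle tumors. The combination group was thus low and uniform, and the other groups were spread: the highest anti-PD1 tumor held 6.13 times the Hba-a1 of the lowest. The FPKM sum of all other genes was between 502706 and 516088 with the combination and between 515272 and 528230 in vehicle tumors.

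Alas2 makes the starting compound of heme in erythroid cells. It was at 253, 253, 474 and 458 FPKM in vehicle tumors and at 434, 243, 69.7 and 290 FPKM in anti-PD1 tumors. It was at 109, 276, 420 and 258 FPKM in α-KG tumors and at 38.1, 36.4, 33.6 and 43.9 FPKM in α-KG + anti-PD1 tumors. Per 1000 FPKM of Hba-a1, Alas2 was from 9.19 up to 11.4 in vehicle tumors, 6.94 up to 8.29 in anti-PD1 tumors, 9.27 up to 11.6 in α-KG tumors and 7.61 up to 10.0 with both agents. On this scale the anti-PD1 tumors lay below the vehicle and α-KG tumors without overlap, while in FPKM itself they overlapped both groups. The share of all genes with this pattern was not computed.

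Bpgm makes bisphosphoglycerate, which lowers the oxygen affinity of hemoglobin. It was at 125, 96.5, 161 and 154 FPKM in vehicle, 119, 88.2, 44.3 and 93.2 FPKM in anti-PD1, 59.0, 115, 155 and 108 FPKM in α-KG and 26.6, 32.3, 30.8 and 38.3 FPKM in α-KG + anti-PD1 tumors. Its fall was smaller than that of the chains. Per 1000 FPKM of Hba-a1 it was at 5.86 to 8.73 with the combination and at 2.17 to 5.47 in the 12 other tumors. Hba-a1 was itself chosen for its fall, so a gene that fell less tends to be highest with the combination on this scale. The share of all genes with this pattern was not computed, and nothing particular to Bpgm is read from it.

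Slc4a1 exchanges chloride and bicarbonate across the red cell membrane and anchors its skeleton. It was at 6.04, 3.18, 30.8 and 29.5 FPKM in vehicle tumors and at 2.84, 1.57, 0.91 and 1.85 FPKM in anti-PD1 tumors. It was at 1.45, 4.20, 4.48 and 2.85 FPKM in α-KG tumors and at 0.49, 0.54, 0.11 and 0.47 FPKM in α-KG + anti-PD1 tumors. Vehicle tumors 3 and 4 stood far above all others, and vehicle tumor 2 lay inside the α-KG range. Apol11b had the same shape: 4.25, 1.98, 17.9 and 17.1 FPKM in vehicle, 1.98, 1.29, 0.28 and 1.21 FPKM in anti-PD1, 1.28, 2.85, 3.22 and 3.41 FPKM in α-KG and 0.13, 0.24, 0.10 and 0.14 FPKM in α-KG + anti-PD1 tumors. Vehicle tumor 2 equaled the highest anti-PD1 tumor and lay inside the α-KG range. Values this far under 1 FPKM rest on few fragments.

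All 8 genes were lower in each α-KG + anti-PD1 tumor than in any of the 12 other tumors, a pattern that 0.786% of the 12850 genes tested showed. The rule that chose the genes used these tumors, so this count describes them. For Apol11b and Bpgm the gap was small: the highest combination tumor was at 0.24 and 38.3 FPKM and the lowest other tumor, anti-PD1 tumor 3, at 0.28 and 44.3 FPKM.

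Differences between groups were fitted on log2(FPKM + 1) with limma across the 12850 genes that reached 0.5 FPKM in 4 or more tumors. All 8 genes passed this filter. Against vehicle, the combination group was lowest for Hbb-bt, at -3.31 ± 0.47 (SE) on this scale, the largest fall of all genes tested. Slc4a1 was at -3.22 ± 0.52, Alas2 at -3.15 ± 0.46, Hba-a1 at -2.95 ± 0.47 and Apol11b at -2.89 ± 0.47. Hba-a2 was at -2.85 ± 0.46, Hbb-bs at -2.80 ± 0.47 and Bpgm at -2.02 ± 0.29. As a ratio of mean FPKM, vehicle stood 7.95-fold above the combination for Hba-a1, 10.3-fold for Hbb-bt, 9.46-fold for Alas2, 4.20-fold for Bpgm, 43.2-fold for Slc4a1 and 67.5-fold for Apol11b. The pseudocount of 1 shrinks the log2 differences of the last 2 genes. All 8 passed the threshold (adjusted p under 0.05, limma), as 10.5% of all genes tested did in this direction, and nothing is read from that count because this contrast chose the genes. The FPKM of the 2 groups did not overlap for any of the 8, as for 6.55% of all genes in this direction. Without vehicle tumors 3 and 4, Slc4a1 was at -1.96 ± 0.33, Apol11b at -1.78 ± 0.32 and Hba-a1 at -2.59.

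The comparisons with the single agents share the combination tumors with the contrast that chose the genes, and their values are given as a description too. Against anti-PD1, 6 of the 8 genes passed the threshold, where 1.31% of all genes did in this direction. The 4 chains were between -2.73 and -2.65 on the log2 scale, Alas2 was at -2.48 ± 0.46 and Bpgm at -1.33 ± 0.29. Slc4a1 (-0.96 ± 0.52) and Apol11b (-0.86 ± 0.47) were the genes that did not pass, although their FPKM did not overlap between the groups, as for all 8 members (2.99% of all genes). With the 8 tumors of this comparison fitted alone, no gene of the whole table passed. Without vehicle tumors 3 and 4, which this comparison uses only for the spread, all 8 passed (1.49% of all genes). Against α-KG all 8 passed, where 6.47% of all genes did, and none of the 8 overlapped (5.68% of all genes). The chains were between -2.60 and -2.40, Alas2 was at -2.63 ± 0.46, Bpgm at -1.67 ± 0.29, Apol11b at -1.63 ± 0.47 and Slc4a1 at -1.54 ± 0.52.

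With anti-PD1 alone, the hemoglobin chains were close to vehicle in their means and wide in their spread. Hbb-bs differed by -0.11 ± 0.47, Hba-a2 by -0.20 ± 0.46, Hba-a1 by -0.27 ± 0.47 and Hbb-bt by -0.58 ± 0.47 on the log2 scale. Alas2 (-0.67 ± 0.46) and Bpgm (-0.69 ± 0.29) were somewhat lower, and the largest differences were those of Apol11b (-2.03 ± 0.47) and Slc4a1 (-2.26 ± 0.52). None of the 8 passed the threshold, where 0.28% of all genes did in this direction. Before adjustment 3 of the 8 (Slc4a1, Apol11b and Bpgm) were under 0.05. The share of all genes at that threshold was not computed, so nothing is read from this count. Slc4a1 was the only member whose FPKM did not overlap between anti-PD1 and vehicle (3.61% of all genes were lower in this way). Without anti-PD1 tumor 3, the log2 differences of Hba-a1, Hba-a2 and Hbb-bs turned positive (0.27, 0.34 and 0.44). Without vehicle tumors 3 and 4, Slc4a1 was at -1.003 ± 0.33 and Apol11b at -0.92 ± 0.32, and no gene of the whole table passed. Without vehicle tumor 1 or vehicle tumor 2, 2 members passed, where 2.76% and 0.366% of all genes were lower in these fits, and without α-KG + anti-PD1 tumor 4, which enters only through the spread, 1 passed (0.42% of all genes).

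With α-KG alone, 1 of the 8 genes passed, Slc4a1 at -1.68 ± 0.52, where 7.53% of all genes did in this direction. Apol11b was at -1.26 ± 0.47 and the 4 chains were between -0.71 and -0.24, with Alas2 at -0.52 ± 0.46 and Bpgm at -0.35 ± 0.29. The FPKM of all 8 genes overlapped between α-KG and vehicle. The Slc4a1 call rested on vehicle tumors 3 and 4: without them its difference was -0.42 ± 0.33 and that of Apol11b was -0.15 ± 0.32, and without vehicle tumor 3 or vehicle tumor 4 alone, or any 1 α-KG tumor, no member passed. Without vehicle tumor 1 or vehicle tumor 2, 2 members passed, where 10.3% and 5.89% of all genes were lower.

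**Figure D2:**
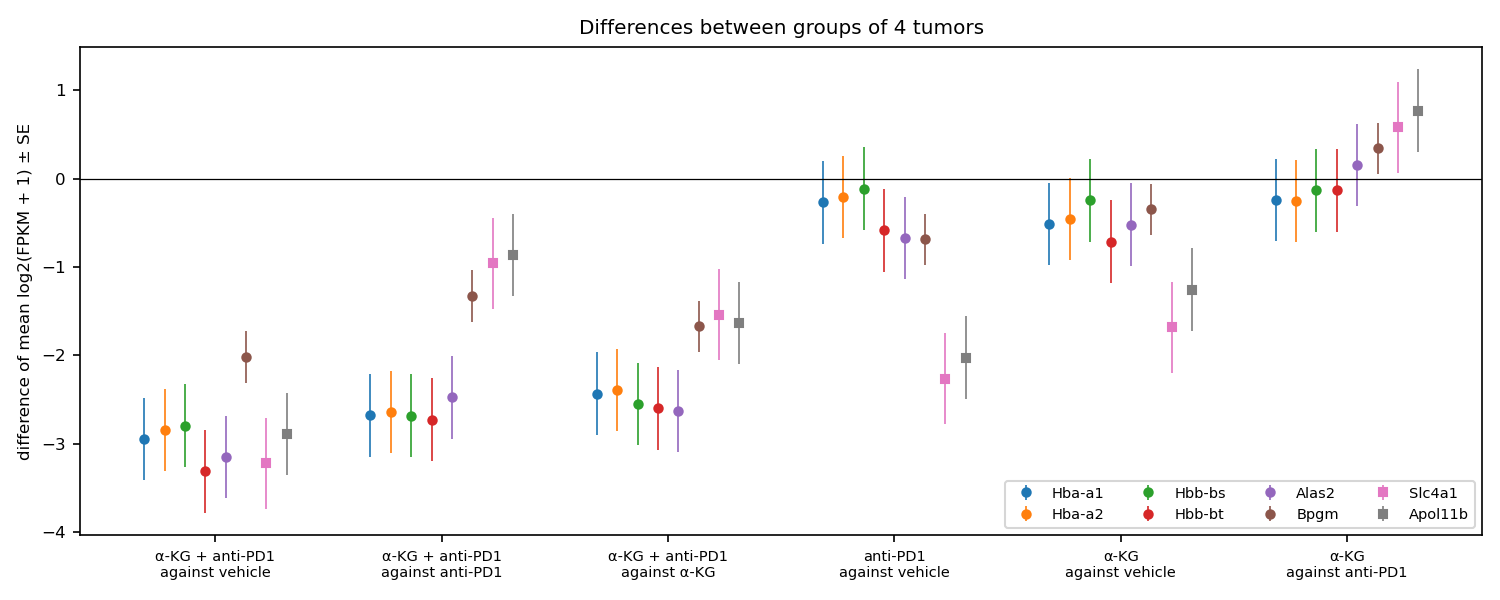
Difference of mean log2(FPKM + 1) between groups of 4 tumors with its SE, for each gene and 6 comparisons. The 4 chains and Alas2 sit between -3.31 and -2.40 in the 3 comparisons of the combination and between -0.71 and 0.15 in the others, while Slc4a1 and Apol11b (squares) are spread over both.

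The comparison of α-KG with anti-PD1 shares no tumor with the contrast that chose the genes. It could be tested for the 4 chains, Alas2 and Bpgm, while for Slc4a1 and Apol11b, whose choice also looked at these groups, it is a description. None of the 8 genes passed in either direction, where 0.358% of all genes were lower and 2.8% higher in α-KG tumors. For Hba-a1 the difference was -0.24 on the log2 scale, with a 95% interval from -1.24 to 0.75 (adjusted p = 0.811, limma). For Alas2 it was 0.15, with an interval from -0.84 to 1.14 (adjusted p = 0.887, limma), and for Bpgm 0.34, with an interval from -0.28 to 0.96 (adjusted p = 0.561, limma). These intervals are wide beside the differences. Slc4a1 was at 0.58 ± 0.52 and Apol11b at 0.77 ± 0.47.

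The interaction compares the difference of the combination from vehicle with the sum of the differences of both single agents. Of the 8 genes 3 passed below that sum, Hba-a1 (-2.17), Hba-a2 (-2.19) and Hbb-bs (-2.44 on the log2 scale), where 3.13% of all genes were lower and 7.99% higher. Slc4a1 (0.72) and Apol11b (0.39) had the opposite sign, which turned with a pseudocount of 0.1 (-0.016 and -0.68) and without vehicle tumors 3 and 4 (-0.54 and -0.72). The interaction contains the tumors that chose the genes. Without vehicle tumors 3 and 4 no member passed, although the differences of Hba-a1 (-2.52), Hba-a2 (-2.47) and Hbb-bs (-2.66) were larger in size.

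Slc4a1 and Apol11b were also set against Hba-a1. Per 10000 FPKM of Hba-a1, Slc4a1 was from 1.16 up to 7.43 in vehicle tumors, 0.443 up to 1.01 in anti-PD1 tumors, 1.07 up to 1.41 in α-KG tumors and 0.249 up to 1.31 with both agents. Apol11b was from 0.719 up to 4.31 in vehicle tumors, 0.290 up to 0.440 in anti-PD1 tumors, 0.890 up to 1.28 in α-KG tumors and 0.226 up to 0.581 with both agents. Anti-PD1 tumors were therefore below α-KG tumors without overlap for both genes on this scale, as they were for Alas2. In FPKM itself these groups overlapped for all 3 genes. The ratios share the Hba-a1 denominator and are not separate readings, and the share of all genes with this pattern was not computed. The ratio of Slc4a1 to Apol11b was 1.42 to 1.73 in vehicle tumors and 0.836 to 3.77 in the others. These ratios are descriptions, and those of the combination rest on values under 1 FPKM.

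**Figure D3:**
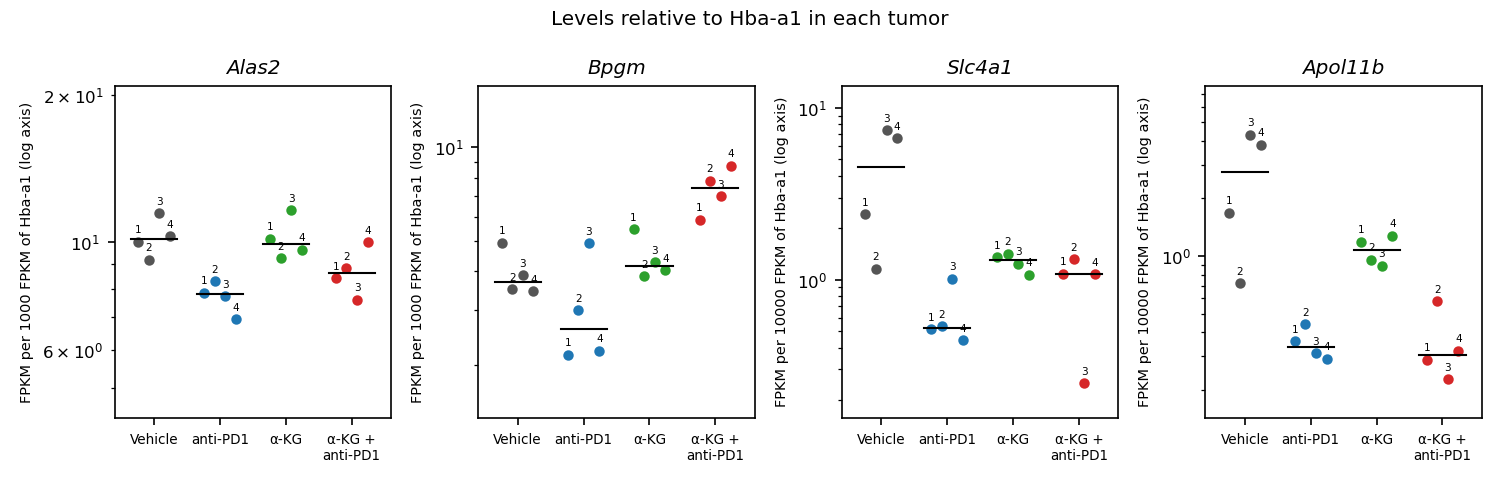
Alas2 and Bpgm per 1000 FPKM of Hba-a1, and Slc4a1 and Apol11b per 10000, in each tumor (log axes), with a line at each group's median. Alas2 stays between 6.94 and 11.6 in all 16 tumors, and Slc4a1 and Apol11b are highest in vehicle tumors 3 and 4. Bpgm, which fell less than Hba-a1, is highest with the combination.

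Pooled over the 4 groups, tumors above their group mean in Hbb-bt tended to lie above it in the 7 other members. This did not hold for every gene inside the narrow combination group. Its tumor 2 was highest in Hbb-bt (547 FPKM), Slc4a1 (0.54) and Apol11b (0.24) but lowest in Hba-a1 (4129) and Hba-a2 (2829). The pooled relation was measured on the deviation of each tumor from its group mean of log2(FPKM + 1), which the choice of the genes did not use. It covered 16 tumors and 7 relations to Hbb-bt, with 100000 permutations within groups (two-sided, Benjamini-Hochberg over the 7). Alas2, which shares no coding sequence with the chains, had Pearson's r = 0.983 (permutation p = 7e-05, adjusted 0.000327) and Spearman's rho = 0.944 (permutation p = 0.00012, adjusted 0.00042). Hba-a1 had r = 0.980 (permutation p = 0.00014, adjusted 0.000327) and rho = 0.897 (permutation p = 0.00063, adjusted 0.0011), and Hba-a2 had r = 0.980 (permutation p = 0.00012, adjusted 0.000327) and rho = 0.903 (permutation p = 0.0005, adjusted 0.0011). Hbb-bs had r = 0.961 (permutation p = 0.0004, adjusted 0.000588) and rho = 0.83 (permutation p = 0.00149, adjusted 0.00209), but shares fragments with Hbb-bt.

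Bpgm had r = 0.939 (permutation p = 0.00042, adjusted 0.000588) and rho = 0.915 (permutation p = 8e-05, adjusted 0.00042). The relation was looser for the membrane gene and Apol11b. Slc4a1 had r = 0.620 (permutation p = 0.00068, adjusted 0.000793) and rho = 0.835 (permutation p = 0.00184, adjusted 0.00215). Apol11b had r = 0.638 (permutation p = 0.00377, adjusted 0.00377) and rho = 0.756 (permutation p = 0.00859, adjusted 0.00859). With the 2 tumors most distant from the Hbb-bt median left out, r was 0.952 for Alas2, 0.946 for Hba-a1, 0.947 for Hba-a2, 0.887 for Hbb-bs, 0.845 for Bpgm, 0.654 for Slc4a1 and 0.584 for Apol11b. Whether the values of r differ between genes was not tested. The permutations treated the closest pair of vehicle tumors as separate tumors, and the relations were not repeated without that pair. If the pair does not come from separate libraries, the permutation p-values may be too small. This applies to Slc4a1 and Apol11b in particular, in which that pair stood far above all other tumors.

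**Figure D4:**
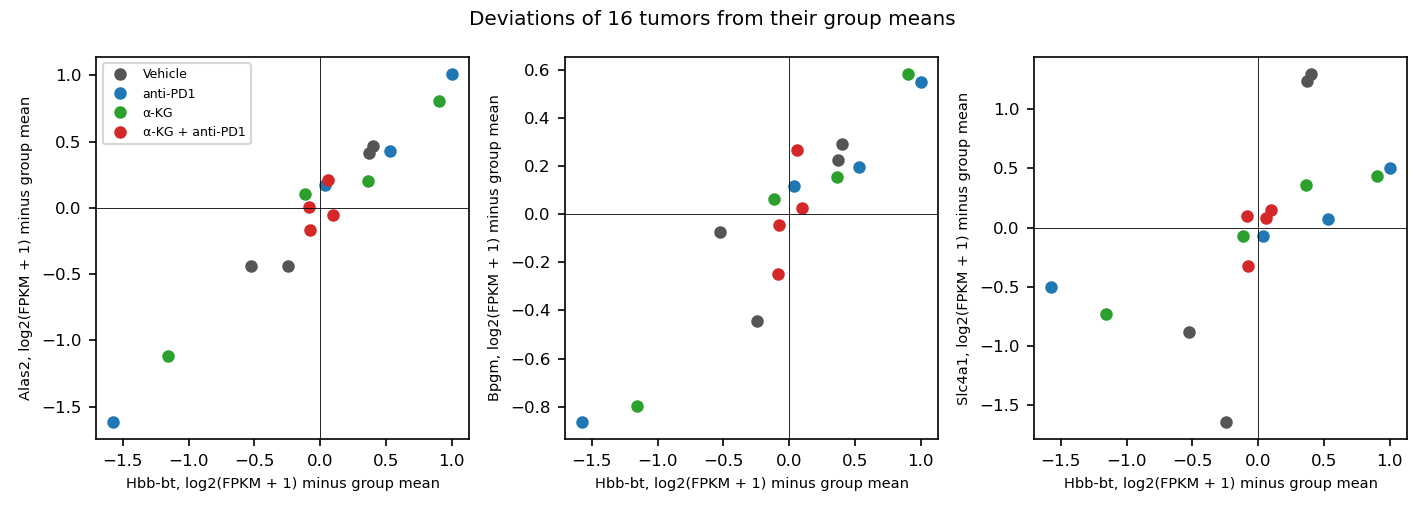
Deviation of each of 16 tumors from its group mean in log2(FPKM + 1), Hbb-bt on the horizontal axis against Alas2, Bpgm and Slc4a1 on the vertical axis. Alas2 lies near a line (r = 0.983), and Slc4a1 is spread by the 4 vehicle tumors (r = 0.620).

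Among the 10 genes whose deviations were most like the mean of the 4 chains, members and hemoglobin genes left out, were Aldh1a1, a retinaldehyde dehydrogenase (r = 0.946 over 16 tumors), Isg20, an exonuclease (0.945), Fam220a (0.917), Isca1, an iron-sulfur cluster assembly factor (0.877), Tspo2 (0.849), Marchf2, a ubiquitin ligase (0.814), Mkrn1, a ubiquitin ligase (0.799), and Fech, which inserts iron into heme (0.772). Aldh1a1 was between 4.46 and 7.00 FPKM in vehicle tumors, 0.99 and 5.84 in anti-PD1 tumors, 1.73 and 9.57 in α-KG tumors and 0.53 and 0.69 with both agents. It was lower with the combination than in vehicle by 2.05 ± 0.37 (SE; adjusted p = 0.000709, limma). Isg20 was at 29.9 to 57.0 FPKM in vehicle and 12.9 to 16.5 with the combination, and Isca1 at 66.4 to 88.6 and 41.3 to 48.1 FPKM. All 10 were lower with the combination than in vehicle and passed the threshold, where 10.5% of all genes did in this direction. When vehicle tumors 3 and 4 were left out, Aldh1a1 (-1.86), Fam220a (-0.87), Isca1 (-0.54) and Fech (-0.89) still passed, and Isg20 (-1.14), Tspo2 (-0.98), Marchf2 (-0.73) and Mkrn1 (-0.42) did not. Apol11b was the gene most like Slc4a1 by the same measure (r = 0.970), followed by Trim10 (0.947) and Epb41 (0.940). This second ranking was added after the values were seen. All of these genes were higher in vehicle tumors 3 and 4 than in vehicle tumors 1 and 2, and the ranking was not repeated without that pair.

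Other hemoglobin genes were measured beside the members. The embryonic chains Hba-x, Hbb-bh1 and Hbb-y were at 0.37 FPKM or less in every tumor, and Hbb-y was above 0 in 2 tumors. Hbb-b1, a beta chain of other mouse strains, was at 4.58, 12.9, 14.0 and 12.7 FPKM in vehicle tumors, 17.1, 4.53, 0.96 and 12.9 FPKM in anti-PD1 tumors, 3.53, 7.12, 11.7 and 8.24 FPKM in α-KG tumors and 2.99, 0.51, 3.00 and 1.45 FPKM in α-KG + anti-PD1 tumors. It followed Hbb-bs at a much lower level, and near-identical sequence makes its value uncertain. The theta chain Hbq1b fell with the combination, from a mean of 3.84 to 0.155 FPKM (-1.91 ± 0.37, adjusted p = 0.00124, limma), and Hbq1a fell from 1.85 to 0.48 FPKM (-0.99 ± 0.35, adjusted p = 0.0330, limma). Hbb-bh2 rose from 0.823 to 2.43 FPKM (0.98 ± 0.35, adjusted p = 0.0316, limma), and Hbb-b2 was at 1.23 FPKM or less. In the fit lacking vehicle tumors 3 and 4, Hbq1b still passed (-1.21 ± 0.36), and Hbb-b1 (-1.67 ± 0.74), Hbq1a (-1.03 ± 0.45) and Hbb-bh2 (0.68 ± 0.43) did not.

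A list of 69 other erythroid genes was taken from their known roles, and 49 of them could be tested. Against vehicle, 18 of the 49 were lower with the combination and 9 higher, where 10.5% of all genes were lower and 34.9% higher, and the median difference of the 49 was -0.19 against 0.15 for all genes tested. Scaling moved this split and that of all genes alike. After quantile normalization 32 were lower and 2 higher, where 31.1% of all genes were lower and 17.4% higher, and after centering each tumor on its median gene 32 were lower and 3 higher (37.4% and 17.1% of all genes). After vehicle tumors 3 and 4 were left out, 5 were lower (Hbq1b, Fech and Bnip3l among them) and 3 higher (Ppox, Slc25a38 and Uros), where 1.71% of all genes were lower and 12.4% higher, and the median of the 49 was -0.061.

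**Figure D5:**
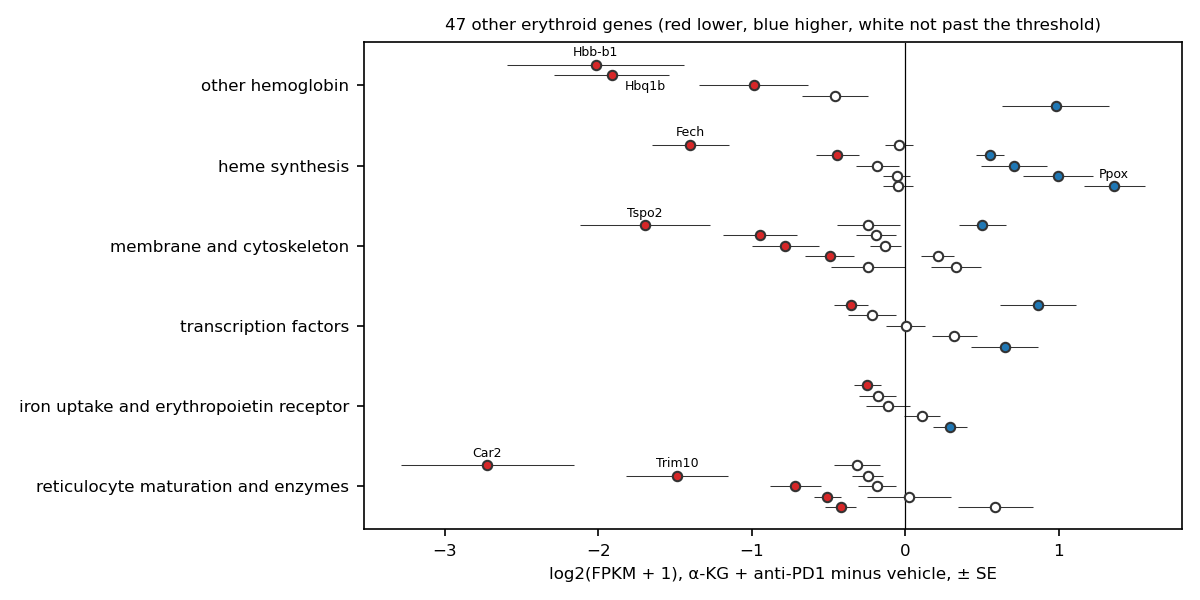
Difference in log2(FPKM + 1) between α-KG + anti-PD1 and vehicle tumors with its SE for 47 of the 49 tested erythroid genes that are not members, by role. Car2, Hbb-b1, Hbq1b and Tspo2 lie farthest to the left, and heme synthesis genes lie on both sides.

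Membrane and cytoskeleton genes of this list fell in 5 of 12 tested and rose in 1, where 10.5% of all genes were lower and 34.9% higher. Tspo2 (-1.70 ± 0.42), Epb41 (-0.95 ± 0.24) and Epb42 (-0.78 ± 0.22), the last of which binds Slc4a1, were among those that fell. Epb41 was at 54.3 and 53.8 FPKM in vehicle tumors 3 and 4 and at 30.0 FPKM or less in the 14 others, a vehicle pattern like that of Slc4a1. With vehicle tumors 3 and 4 left out, Tspo2 (-0.98 ± 0.44), Epb41 (-0.40 ± 0.19) and Epb42 (-0.37 ± 0.21) did not pass.

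Genes of reticulocyte maturation and red cell enzymes fell in 6 of 11 tested and rose in none (10.5% and 34.9% of all genes). Car2, a carbonic anhydrase, fell from a mean of 27.3 to 2.22 FPKM (-2.73 ± 0.56, adjusted p = 0.00172, limma), with 12.1, 6.02, 45.6 and 45.6 FPKM in vehicle tumors. Trim10 (-1.49 ± 0.33) and Mkrn1 (-0.72 ± 0.17) also fell, and Mkrn1 was at 39.4 FPKM or more in all tumors. When vehicle tumors 3 and 4 were left out, Car2 (-1.58 ± 0.51), Trim10 (-0.75 ± 0.26) and Mkrn1 (-0.42 ± 0.17) did not pass.

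Of 10 heme synthesis genes other than Alas2, 2 fell and 4 rose, near the shares of all genes (10.5% lower and 34.9% higher). Fech fell from 57.2 to 19.8 FPKM in the mean (-1.40 ± 0.25, adjusted p = 0.000747, limma), with 40.1, 34.9, 77.3 and 76.4 FPKM in vehicle tumors. Ppox, an earlier step of the pathway, rose from 10.3 to 28.0 FPKM (1.36 ± 0.20, adjusted p = 0.000417, limma), and the mitochondrial carriers Slc25a38 (1.00 ± 0.23) and Slc25a37 (0.71 ± 0.22) rose as well. Most of these genes are active in all cells. In the fit lacking vehicle tumors 3 and 4, Fech (-0.89 ± 0.23), Ppox (1.21 ± 0.25) and Slc25a38 (1.03 ± 0.29) still passed, and Slc25a37 (0.73 ± 0.28) did not.

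Of the erythroid transcription factors, 1 of 6 tested fell and 2 rose, near the shares of all genes (10.5% lower and 34.9% higher). Klf1 fell from 0.775 to 0.395 FPKM in the mean (-0.35 ± 0.11, adjusted p = 0.0171, limma), and Lmo2 (0.87 ± 0.25) and Nfe2 (0.65 ± 0.22), which other blood cells also use, rose. Gata1, the master regulator of red cell precursors, was at 0.39 FPKM or less in every tumor and was not tested, as were Gfi1b, Hemgn and Myb. Klf1 was at 0.89 FPKM or less. Iron uptake genes and the erythropoietin receptor fell in 1 of 5 tested (Tfrc, -0.25 ± 0.09) and rose in 1 (Slc11a2, 0.29 ± 0.11), beside the same shares of all genes. After vehicle tumors 3 and 4 were left out, none of these transcription factors and iron genes passed, with Klf1 at -0.29, Lmo2 at 0.59, Nfe2 at 0.70, Tfrc at -0.21 and Slc11a2 at 0.13.

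In the other comparisons few of the 49 passed. Anti-PD1 against vehicle gave none in either direction (0.28% lower and 0.467% higher of all genes). Before adjustment 14 were under 0.05, but the share of all genes at that threshold was not computed, so nothing is read from this count. α-KG against vehicle gave 2 lower (Fam210b and Tfrc) and 1 higher, Nfe2 (7.53% and 8.4% of all genes). The combination against anti-PD1 gave 3 lower and 2 higher (1.31% and 14.2%), and the combination against α-KG 11 lower and 7 higher (6.47% and 31.8%). Nfe2 was also the gene called in α-KG against anti-PD1, where 2.8% of all genes were higher.

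Markers of other cells moved as well, and their part in the results on the members was not tested. All 8 leukocyte markers were higher with the combination than in vehicle, where 34.9% of all genes were higher. Cd52 was higher by 3.18 ± 0.52, Ptprc by 3.01 ± 0.43, Itgb2 by 3.00 ± 0.43 and Coro1a by 2.87 ± 0.45 on the log2 scale. The summed FPKM of the 8 was from 44.2 up to 184 in vehicle tumors, 190 up to 376 in anti-PD1 tumors, 529 up to 568 in α-KG tumors and 288 up to 1059 with both agents. Vehicle tumors 3 and 4 were the lowest of their group in all 8 (Cd52 at 8.80 and 10.1 FPKM, against 50.2 and 29.3 FPKM in vehicle tumors 1 and 2). Without them all 8 still passed, Cd52 by 2.22 ± 0.52, Ptprc by 2.39 ± 0.48, Itgb2 by 2.33 ± 0.46 and Coro1a by 2.16 ± 0.48. Of 8 melanocyte markers, 3 were lower with the combination (Tyr by -0.48 ± 0.13, Tyrp1 by -0.34 ± 0.12, Slc45a2 by -0.30 ± 0.11), where 10.5% of all genes were lower. Mitf was at 0.37 ± 0.18 and did not pass. With vehicle tumors 3 and 4 left out, no melanocyte, endothelial or platelet marker passed.

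Endothelial markers, which line the vessels that hold blood, were low throughout: 5 of 13 could be tested, and their summed FPKM was from 18.3 up to 24.7 in vehicle tumors, 21.7 up to 33.4 in anti-PD1 tumors, 21.04 up to 25.9 in α-KG tumors and 18.6 up to 31.0 with both agents. Egfl7, at 9.00 to 18.6 FPKM, was the largest part of this sum in every tumor. Pecam1 (0.90 ± 0.26) and Vwf (0.71 ± 0.27) rose with the combination, where 34.9% of all genes were higher. Egfl7 (-0.35 ± 0.16) and Plvap (0.23 ± 0.22) did not pass. In the combination tumors Pecam1 was at 3.06, 1.33, 2.98 and 0.78 FPKM and the leukocyte marker Ptprc at 37.6, 14.2, 35.5 and 9.34 FPKM. Whether Pecam1 followed vessels or leukocytes was not tested. Cdh5, Kdr and Tek were among the markers under the filter, at 0.92 FPKM or less in every tumor. Platelet markers gave 2 lower (Ppbp by -1.06 ± 0.31 and Gp1bb by -0.51 ± 0.15) and 1 higher (Gp1ba by 0.61 ± 0.22) of 7 tested. Of all genes, 10.5% were lower and 34.9% higher. Pf4 (0.63 ± 0.28) did not pass. The summed FPKM of the platelet markers was from 19.1 up to 26.8 in vehicle tumors, 30.2 up to 64.9 in anti-PD1 tumors, 53.5 up to 74.9 in α-KG tumors and 19.6 up to 35.2 with both agents. Most of this sum was Pf4, at 10.3 to 20.8 FPKM in vehicle and 25.9 to 55.4 FPKM in anti-PD1 tumors. Gp1bb went the other way, at 0.47 to 1.25 FPKM in vehicle and 0.15 to 0.40 FPKM in anti-PD1 tumors, so the sum does not describe every marker.

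Neutrophil markers gave 2 of 8 higher with the combination (Csf3r by 1.62 ± 0.27 and Cxcr2 by 0.53 ± 0.18), where 34.9% of all genes were higher. Retnlg (0.95 ± 0.47) and Mmp9 (0.56 ± 0.29) did not pass. The summed FPKM of 12 neutrophil genes was from 23.0 up to 42.9 in vehicle tumors, 1085 up to 2884 in α-KG tumors and 33.3 up to 114 with both agents. Genes listed for the handling of heme and iron by macrophages gave 4 of 9 higher and none lower, where 34.9% of all genes were higher. In α-KG against vehicle 7 of 9 were higher (8.4% of all genes). Hp, the carrier of free hemoglobin (1.47 ± 0.33), Lrp1, a receptor for heme bound to its carrier (1.46 ± 0.27), Spic, a factor of the macrophages that clear red cells (1.06 ± 0.26), and the iron exporter Slc40a1 (0.89 ± 0.24) rose. In α-KG tumors, the group highest in neutrophil markers, Hp was at 19.6 to 51.7 FPKM, and which cells it came from was not tested. Hmox1, which breaks heme down, was at 0.65 ± 0.28 and did not pass. When vehicle tumors 3 and 4 were left out, Hp (1.40 ± 0.42), Lrp1 (0.94 ± 0.25) and Csf3r (1.59 ± 0.34) still passed, and Spic (0.90 ± 0.33), Slc40a1 (0.50 ± 0.24) and Cxcr2 (0.64 ± 0.22) did not.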

How the data were processed

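Poly(A) RNA of 16 tumors was sequenced on a DNBSEQ platform with dUTP marking of the second strand, and the authors deposited 1 table of FPKM values (18929 genes). The submitters' processing notes name HISAT, Bowtie2 and mm10, while versions, the annotation and any normalization between tumors are not given in the sources used here. FPKM holds no depth: steps of whole fragments were not found (27.3% of 216 low values lay within 0.15 of a whole step), so no counting error is given.

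Groups came from the labels. The members and lists were chosen with earlier results of these data known. The log2(FPKM + 1) of the 12850 genes that reached 0.5 FPKM in 4 or more tumors was fitted with limma 3.58.1 in R 4.3.3 (lmFit, contrasts.fit, eBayes with a trend), with 1 mean per group over all 16 tumors, and p was adjusted by Benjamini-Hochberg over all 12850 (threshold 0.05). No p is given for members in comparisons that share tumors with the contrast that chose them. In simulated data of this design for the combination against vehicle (12850 genes, 200 changed by 2 on the log2 scale) 98.5% of changed genes were called and 7.08% of calls were false. The simulated comparison of α-KG with anti-PD1, without change, gave 0 calls. The simulated noise was independent between genes and tumors, and far fewer genes changed than the 5827 called in the real comparison. These rates therefore check the fit and do not give the error in the real data.

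Named were the 8 members, all hemoglobin genes, the 4 tested genes of each list with the largest difference between combination and vehicle, the 10 genes most like the chains, and markers near 0. Genes outside this rule (Bnip3l, Uros, Fam210b, Hmox1, Cdh5, Kdr, Tek) were named after their values were seen, and some genes that the rule names are not reported here, though the counts include them. Within-group relations used Python 3.11.15 with numpy 2.4.6 and scipy 1.17.1 on deviations from group means. Promoters and gene positions came from RefSeq (GRCm38.p6) and transcripts from GENCODE M21. Alternatives were a pseudocount of 0.1, no filter, quantile normalization, median centering, equal FPKM sums with and without hemoglobin, a replicate block, fits of only the groups compared, leaving out each tumor and, added after seeing the data, leaving out vehicle tumors 3 and 4.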

Additional observations from a re-analysis of the deposited data

Results flagged for a closer look

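In the 36 checks of a single tumor against its group (8 genes and the hemoglobin share in 4 groups, of which chance flags about 1 in 20), Slc4a1 in α-KG + anti-PD1 tumor 3 (0.11 FPKM, against 0.47 to 0.54 FPKM in the other 3) stood apart from its group.

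The difference of the combination from vehicle exceeded the sum of the differences of both agents for the hemoglobin chains. The interaction on the log2 scale was -2.17 for Hba-a1, -2.19 for Hba-a2 and -2.44 for Hbb-bs, and these 3 of the 8 genes passed the threshold in limma, where 3.13% of all genes did in this direction. Hbb-bt (-2.01), Alas2 (-1.96) and Bpgm (-0.98) did not pass, nor did Slc4a1 (0.72) and Apol11b (0.39), whose values had the opposite sign, which turned without vehicle tumors 3 and 4 (-0.54 and -0.72). The interaction contains the tumors that chose the genes, so these values are a description. Without vehicle tumors 3 and 4 no member passed, although Hba-a1 was then at -2.52, Hba-a2 at -2.47 and Hbb-bs at -2.66.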

How the results depend on the processing

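All 8 members were lower with the combination than in vehicle under all 25 alternatives, where 1.71% to 37.4% of all genes were lower. Against α-KG all 8 were lower under 9 of them (2.86% to 24.3% of all genes) and 7 or 8 without any 1 tumor (4.71% to 7.09%). Against anti-PD1, 5 or 6 were called without any 1 tumor (0.202% to 2.42% of all genes) and 0 when only these 8 tumors were fitted (0%). It was 8 without vehicle tumors 3 and 4 (1.49%) and 7 with a pseudocount of 0.1 (1.09%), which moved Slc4a1 from -0.96 to -1.94 and Apol11b from -0.86 to -2.15. For anti-PD1 against vehicle the count of members rose from 0 to 2 with a pseudocount of 0.1 (0.623% of all genes) and with median centering (0.521%). It was 0 to 2 without any 1 tumor (0% to 2.76%). For α-KG against vehicle it fell from 1 to 0 with a pseudocount of 0.1, no filter, only the groups compared, and without vehicle tumors 3 and 4 (0 to 2 without any 1 tumor). For the interaction it moved from 3 to 0 with no filter (1.89% of all genes) and without vehicle tumors 3 and 4 (2.02%). It was 1 with median centering (4.93%) and 5 with equal FPKM sums (2.21%), and 0 to 6 without any 1 tumor. With the replicate block it was 0 for the interaction and 0 for α-KG against vehicle. The labels' numbers share no stated batch. Same-numbered tumors correlated between -0.642 and 0.411 in their deviations, which shows no clear pairing by number. With 4 tumors per group this check cannot decide whether the numbers share a batch. The block moved no other count by over 1.5 times.

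The erythroid list moved more than the members, and the shares of all genes moved as well. Combination against vehicle gave 32 lower with quantile normalization, 32 with median centering and 5 without vehicle tumors 3 and 4 (main 18). Of all genes, 31.1%, 37.4% and 1.71% were lower (main 10.5%). It gave 2, 3 and 3 higher (main 9), where 17.4%, 17.1% and 12.4% of all genes were higher (main 34.9%). α-KG against vehicle gave 5 lower with no filter, 4 with quantile normalization, 5 with equal sums without hemoglobin and 1 without vehicle tumors 3 and 4 (main 2). Of all genes, 4.42%, 12.8%, 11.3% and 1.2% were lower (main 7.53%). Without any 1 tumor it gave 1 to 8 lower and 1 to 3 higher, where 3.3% to 10.3% of all genes were lower and 6.19% to 10.1% higher. Anti-PD1 against vehicle gave 0 to 5 lower without any 1 tumor, where 0% to 2.76% of all genes were lower. Combination against anti-PD1 gave 1 lower with no filter, 9 with median centering, 0 with only the groups compared and 5 without vehicle tumors 3 and 4 (main 3, and 0 to 5 without any 1 tumor). Of all genes, 0.613%, 15.3%, 0% and 1.49% were lower (main 1.31%, and 0.202% to 2.42%). It gave 1 higher with quantile normalization, 1 with median centering, 7 with equal sums and 0 with only the groups compared (main 2, and 1 to 6). Of all genes, 5.61%, 6.24%, 32.7% and 0% were higher (main 14.2%, and 1.57% to 20.4%). Combination against α-KG gave 18 lower with median centering and 7 with equal sums (main 11, and 4 to 12 without any 1 tumor). Of all genes, 24.3% and 2.86% were lower (main 6.47%, and 4.71% to 7.09%). It gave 2 higher with quantile normalization, 2 with median centering and 12 with equal sums (main 7, and 4 to 9). Of all genes, 15.7%, 13.7% and 53.1% were higher (main 31.8%, and 22.2% to 33.4%). The interaction gave 1 higher with quantile normalization, 1 with median centering and 6 with equal sums (main 3). Of all genes, 4.43%, 3.03% and 16.4% were higher (main 7.99%). The median difference of all genes between combination and vehicle was 0.15 as deposited, -0.16 after median centering, -0.11 after quantile normalization and 0.34 with equal sums.

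Quantile normalization gives the most abundant genes nearly the same values in every tumor, and r with Hbb-bt was then 0.58 for Hba-a1, 0.94 for Hba-a2 and 0.86 for Hbb-bs, none past the threshold. Signs turned in differences that had not passed. Without any 1 tumor, anti-PD1 against vehicle ranged from -0.597 to 0.27 for Hba-a1, -0.551 to 0.34 for Hba-a2 and -0.45 to 0.44 for Hbb-bs, highest without anti-PD1 tumor 3. Without vehicle tumors 3 and 4 these were 0.083, 0.072 and 0.10. Hbb-bs in α-KG against vehicle ranged from -0.468 to 0.14. α-KG against anti-PD1 ranged from -0.787 to 0.13 for Hba-a1, -0.790 to 0.14 for Hba-a2, -0.679 to 0.25 for Hbb-bs, -0.655 to 0.25 for Hbb-bt and -0.39 to 0.526 for Alas2. The interaction of Slc4a1 was -0.016 with a pseudocount of 0.1 and -0.54 without vehicle tumors 3 and 4, and that of Apol11b -0.68 and -0.72. The cause was not tested. Depth is unknown, so values of Slc4a1 and Apol11b under 1 FPKM are the least precise.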

Other observations

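Skeletal muscle genes stood among the largest falls between the combination and vehicle beside the hemoglobin genes: Acta1, the actin of the contractile fiber, was at -2.97 ± 0.90 (SE), Tnnt3 at -2.90 ± 0.89 and Mb, myoglobin, at -2.89 ± 0.92 on the log2 scale. Without vehicle tumors 3 and 4 they were at -1.90, -1.93 and -1.83 with the combination, and did not pass in limma. In that fit they were lower still with each single agent against vehicle. They were at -3.88, -3.84 and -3.72 with α-KG, where they passed, and at -3.94, -3.86 and -3.71 with anti-PD1, where they did not. Hba-a1 was at -0.16 and 0.083 in these comparisons, so the muscle genes did not share the pattern of the chains. The cause was not tested. These genes were named after their values were seen.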
